A study of Rattus norvegicus with 2 samples.

Results

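Interleukins and their receptors were examined in RNA from the urinary bladder of male F344 rats, as measured on 1 array of a control pool and 1 array of a pool from rats given dimethylarsinic acid (DMA). A gene was included when its cluster on the array, a group of probes covering 1 transcript, carried a single gene symbol that begins with Il and a digit. This gave 82 of the 22093 genes with a single symbol, covered by 87 clusters, and where a gene had several, its brightest cluster was used. The 82 genes were 37 ligands, 35 receptor chains, 6 inhibitors or decoy receptors and 4 other genes. The control rats drank water with 0 ppm DMA and the treated rats water with 200 ppm DMA over 4 weeks, and each pool held RNA of 7 rats. By the labels the rats were 6 weeks old at the start and 10 weeks old at sampling, whereas the methods of the study state an older age at the start. DMA is a methylated arsenic compound that causes urothelial carcinoma in the rat bladder, and the arrays addressed which genes differ early in the treatment.

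With 1 array per group there was no spread between replicates, and the differences are between 2 pools, without an error or a test. A gene was called measured when the higher of its 2 signals reached 100, and called lower or higher when its ratio of DMA over control was at most 0.5 or at least 2 and its Z score was at most -2 or at least 2. Below, a gene said to be past a threshold met both the ratio bound and the Z bound. The Z score places the log2 ratio of a gene among the 500 measured genes nearest to it in signal. Signals are in arbitrary units and depend on the probes of each cluster. They were therefore compared between pools and, apart from the shared minimum of 100, not between genes. The labels give the urinary bladder as the tissue, whereas in the methods RNA came from epithelial cells swirled off turned-out bladders. All 6 markers of superficial urothelium were measured (median log2 ratio 0.03, with Krt20 lower), and so were all 5 smooth muscle markers (median -0.31, none past a threshold) and all 8 fibroblast markers, so that both arrays held RNA of cells outside the epithelium. None of 3 B cell markers and none of 5 neutrophil markers on the array reached a signal of 100.

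Interleukins are secreted proteins through which immune, epithelial and stromal cells signal to each other. Most bind a receptor of 2 or more chains, of which one recognises the ligand and another, often shared between several interleukins, passes on the signal through JAK and STAT proteins or, in the interleukin-1 and interleukin-17 families, through adaptor proteins that lead to NF-kB. Interleukin-33 belongs to the interleukin-1 family. It is stored in the nuclei of epithelial, endothelial and fibroblast-like cells and acts as an alarm signal when such cells are damaged, through a receptor made of ST2, which is encoded by Il1rl1, and the accessory protein encoded by Il1rap.

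The promoters of the genes with the most extreme ratios are shown because 3 of them, Il33, Il7r and Il1rl2, had the lowest ratios among the measured interleukin genes and Il12rb2 had the highest. Each sequence runs 5′ to 3′ from 250 bases before to 50 bases after an annotated start, from RefSeq on the GRCr8 build, and Il33 and Il12rb2 each have 2 annotated starts, of which that of Il12rb2 with motif matches is shown. Capitals mark matches, on either strand, to the kappa B consensus of NF-kB, to the STAT motif TTCNNNGAA, to the AP-1 motif TGANTCA, to GCGTG, the core of the element bound by the aryl hydrocarbon receptor, or to the TATA box TATAAA.
Il33, upstream start, chr1:237115323-237115622, plus strand: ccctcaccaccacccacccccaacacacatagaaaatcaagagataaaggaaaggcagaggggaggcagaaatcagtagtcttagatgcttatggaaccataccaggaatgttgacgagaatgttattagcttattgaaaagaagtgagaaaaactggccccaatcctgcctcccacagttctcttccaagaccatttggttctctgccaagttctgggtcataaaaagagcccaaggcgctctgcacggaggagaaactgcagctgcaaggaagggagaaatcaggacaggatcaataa
Il33, downstream start, chr1:237134696-237134995, plus strand: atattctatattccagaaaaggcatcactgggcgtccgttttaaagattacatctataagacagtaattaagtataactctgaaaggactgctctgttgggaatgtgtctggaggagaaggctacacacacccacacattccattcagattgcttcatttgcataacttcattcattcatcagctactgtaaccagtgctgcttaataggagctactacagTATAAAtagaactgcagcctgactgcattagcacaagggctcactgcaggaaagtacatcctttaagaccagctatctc
Il7r, chr2:60204868-60205167, minus strand: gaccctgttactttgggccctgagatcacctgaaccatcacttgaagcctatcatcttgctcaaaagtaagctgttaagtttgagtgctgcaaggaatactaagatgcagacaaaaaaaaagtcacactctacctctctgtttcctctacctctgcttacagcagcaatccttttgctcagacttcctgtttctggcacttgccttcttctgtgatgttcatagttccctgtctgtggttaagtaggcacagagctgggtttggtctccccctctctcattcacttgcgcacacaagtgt
Il1rl2, chr9:50087302-50087601, plus strand: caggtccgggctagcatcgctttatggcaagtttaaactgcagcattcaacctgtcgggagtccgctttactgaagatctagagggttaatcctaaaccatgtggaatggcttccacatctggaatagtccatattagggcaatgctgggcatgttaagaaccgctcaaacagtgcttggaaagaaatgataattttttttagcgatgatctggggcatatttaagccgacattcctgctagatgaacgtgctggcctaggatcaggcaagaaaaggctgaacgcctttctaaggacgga
Il12rb2, chr4:97844888-97845187, minus strand: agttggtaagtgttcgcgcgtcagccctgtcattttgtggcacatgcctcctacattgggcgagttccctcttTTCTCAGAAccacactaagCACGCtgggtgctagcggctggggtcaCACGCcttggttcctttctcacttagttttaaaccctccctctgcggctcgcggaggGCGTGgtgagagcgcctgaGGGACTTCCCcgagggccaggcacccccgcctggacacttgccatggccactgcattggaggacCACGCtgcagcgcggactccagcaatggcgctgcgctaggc

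Neither the upstream Il33 window nor the windows of Il7r and Il1rl2 held any of the 5 motifs, and the downstream Il33 window held 1 TATA box that began 29 bases before the start. The Il12rb2 window shown held 1 kappa B match, 1 STAT match and 4 matches to GCGTG, none of which overlapped another, and the window of its other start held none. Over the 25 windows of the 22 measured interleukin genes that had one, out of 27, the kappa B consensus was present in 7 (28.0%), against 7.51% of all 33469 promoter windows of the same length. Those 7 windows were those of Il12rb2, Il1r1, Il22ra1, Il4r and Il6st and both windows of Il1rap. Both Il1rap windows held the same letters, GGGAAGCCCC, at -85 and -166 from their starts, so the same site may count in both. The 33469 windows also include those of genes that were not measured, so the shares are not from like sets. The shares were 12.0% and 8.87% for the STAT motif, 4.0% and 7.33% for AP-1, 36.0% and 29.7% for GCGTG, and 12.0% and 14.2% for the TATA box. A match is a description of letters and does not show that a factor binds there.

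Receptor chains reached the signal minimum far more often than ligands did. Of the 82 genes, 27 reached a signal of 100 in either pool, which is 32.9%, against 53.0% of all genes with a single symbol. By role, 3 of 37 ligands (8.11%), 20 of 35 receptor chains (57.1%), 3 of 6 inhibitors or decoys and 1 of 4 other genes were measured. The 3 ligands were Il33, Il15 and Il12a, and the 34 others had signals from 13.4 to 91.4 in the pool where they were higher. Just inside the minimum lay Il12a at 100.3, Il13ra2 at 102.6 and Il22ra1 at 112.3, and just outside it lay Il13 at 91.4, Il17c at 87.7 and Il18 at 86.1. A signal under 100 does not show that a transcript was absent. As signals depend on the probes of each cluster, these shares do not compare amounts of transcript between genes.

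**Figure D1:**
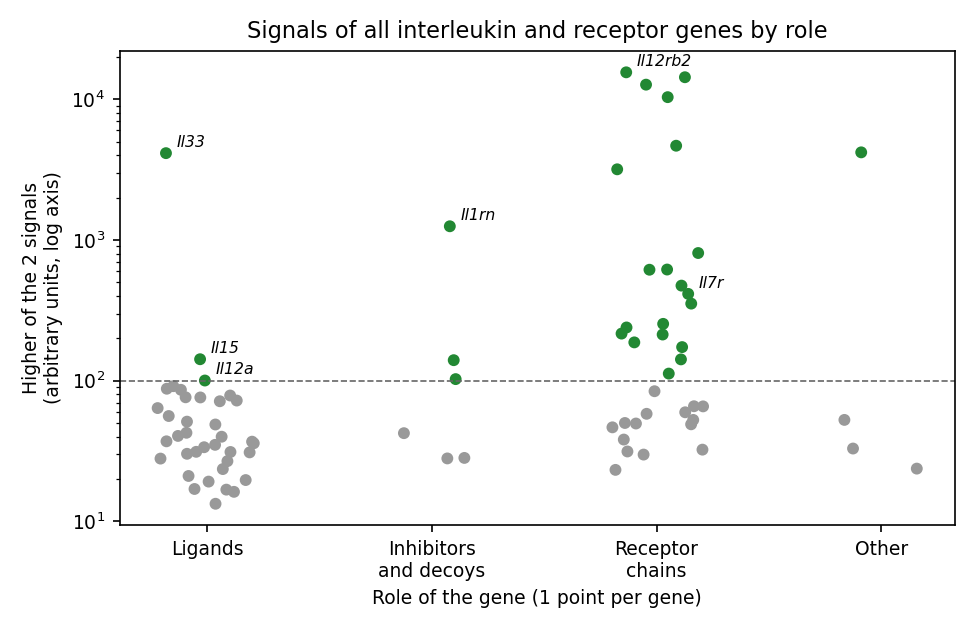
The higher of the 2 signals (log axis, arbitrary units) of each of the 82 genes, 1 point per gene, by role; green points are at or above 100 (dashed line) and grey points are below it. Of the ligands, 3 of 37 lie above the line, against 20 of 35 receptor chains.

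Of the 27 measured genes, Il33 and Il7r were lower in the DMA pool at the thresholds and 0 were higher. Over all 11718 measured genes, 1.42% were lower and 0.375% were higher. At the milder bound of 1.5-fold, 3 of the 27 were lower, beside 5.48% of all measured genes, and 1 was higher, beside 1.3%. The median log2 ratio of the 27 was -0.09 (quartiles -0.29 and 0.01) against -0.04 over all measured genes, and 20 of the 27 (74.1%) were below 0 against 58.9%. Within 1.5-fold lay 23 of the 27 (85.2%), compared with 93.2% of all measured genes. With each array centred on its median signal 23 were below 0, and after a lowess correction over signal 17 were. The median over all measured genes moved as well, to -0.14 with centred arrays and -0.0047 after lowess.

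**Figure D2:**
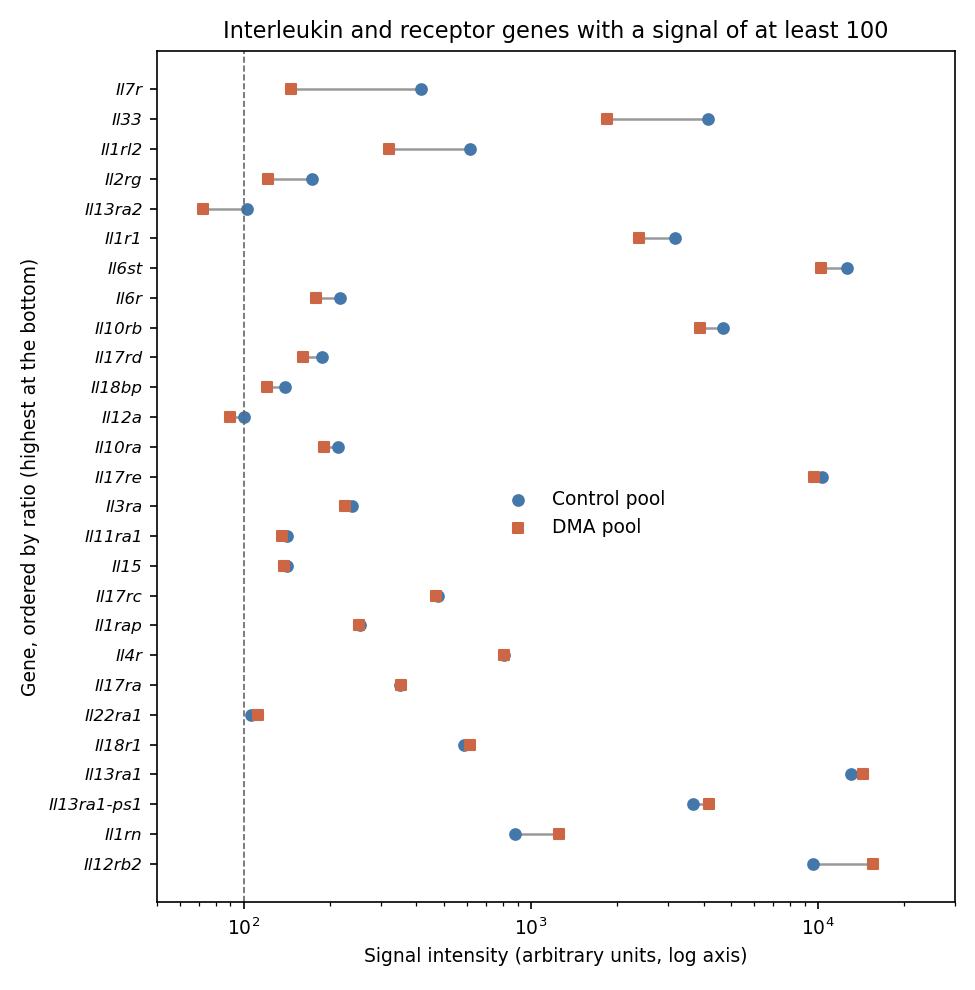
Signals of the 27 measured genes in the control pool (blue circles) and the DMA pool (orange squares) on a log axis in arbitrary units, ordered by ratio; each point is 1 array of 7 pooled rats and the dashed line marks 100. Il7r, Il33 and Il1rl2 have the widest gaps toward lower signal in the DMA pool, and Il12rb2 the widest toward higher signal.

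Il33, the one ligand past a threshold, gave a signal of 4136 in the control and 1849 in the DMA pool (cluster TC0100003458.rn.1). It was 2.24-fold lower in the DMA pool, a log2 ratio of -1.16 with a Z score of -3.63. Among the 27 measured interleukin genes its ratio was 2nd from the lowest, after Il7r, and among all measured genes 0.811% had a lower ratio. The gene had 1 cluster on the array, and no second cluster was available to compare. On the RefSeq map the span of an uncharacterised gene, LOC134485220, overlaps that of Il33. Strand and probe positions were not compared, so whether its transcript adds to the Il33 signal was not tested.

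Neither chain of the interleukin-33 receptor was past a threshold. Il1rl1, which encodes the ligand-binding chain ST2 found on mast cells, type 2 innate lymphoid cells and some T cells, had signals of 84.2 and 68.7 and stayed under the minimum in both pools. Il1rap, the accessory chain shared with the interleukin-1 and interleukin-36 receptors, had 253 in the control and 252 in the DMA pool. The type 2 interleukins that cells release in response to interleukin-33 were dim, with 91.4 and 82.0 for Il13 and 35.0 and 28.8 for Il5.

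In bulk RNA, fewer cells of a type and less RNA per cell cannot be told apart, and this holds for Il33, which several cell types express. Of 8 fibroblast markers, 5 were lower and 0 were higher, beside 1.42% and 0.375% of all measured genes. Their median log2 ratio was -1.33, and their summed signal, most of it from Dcn, Col1a1 and Col1a2, was 416237 in the control and 206739 in the DMA pool. Dcn (-0.59), Dpt (-0.69) and Pi16 (-0.78) were not past both thresholds, and of these Pi16 met the Z bound alone (-2.49). The lower genes were the receptor tyrosine kinase gene Pdgfra, at 2.71-fold lower (8147 and 3007), the collagen genes Col1a1, Col1a2 and Col3a1, with log2 ratios of -1.51, -1.56 and -1.44, and Lum, which encodes the matrix proteoglycan lumican, at -1.23. The 5 measured endothelial markers of 6 had a median of -0.49 and a summed signal over the 6 of 5244 and 3886. None was past both thresholds. Kdr (-0.77) and Plvap (-0.72) were farthest from 0 and met the Z bound alone (-2.12 and -2.04), while the other measured markers met neither bound. Of 6 basal urothelium markers, 4 were on the array, with a median of 0.50 and a summed signal of 80752 and 87803. Most of that sum came from Krt15 (77292 and 80550, log2 ratio 0.06). Krt14 was 2.76-fold higher (1752 and 4840) and alone passed a threshold, beside 0.375% of all measured genes that were higher. Col17a1 and Itgb4 had log2 ratios of 0.47 and 0.53. None of the markers in these 3 lists was at 0. No cluster on either array was, as the lowest signals were 6.75 (control) and 5.63 (DMA), so this does not show that a cell type was present. The part of these cell types in the ratio of Il33 was not tested.

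Il7r had the lowest ratio of the measured interleukin genes. It encodes the chain with which lymphocytes and innate lymphoid cells bind interleukin-7, a survival factor. Its signal was 414 in the control and 146 in the DMA pool (cluster TC2_KL567908v1_random00000002.rn.1), 2.83-fold lower, with a log2 ratio of -1.50 and a Z score of -4.57. Only 0.367% of all measured genes had a lower ratio. Il2rg, the common gamma chain that pairs with it, had 173 and 122 (log2 ratio -0.51) and was not past a threshold. The ligand Il7 was under the minimum, with 72.3 and 52.1.

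The other receptors that use the common gamma chain were dim or alike in both pools. Il4r, the receptor chain for interleukin-4 and interleukin-13, had 807 in each pool. Il2ra, Il2rb, Il9r, Il15ra and Il21r were under 100 in both pools, with a highest signal of 52.7 for Il15ra. Of the 6 ligands, Il15, a survival factor of natural killer and memory T cells, was measured (142 and 138, log2 ratio -0.04), whereas Il2, Il4, Il7, Il9 and Il21 were not. Both clusters of Il15ra had a lower signal in the DMA pool, with log2 ratios of -0.24 and -0.36.

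Lymphocyte markers beside Il7r differed from one another. Of 9 markers of T cells and innate lymphoid cells, 8 were on the array and 4 were measured, with a median of -0.04 (0.098 over all 8), and a summed signal over the 8, most of it from Gata3, of 32726 in the control and 29771 in the DMA pool. Cd4, a co-receptor of helper T cells that rat macrophages also carry, was 2.70-fold lower (2566 and 950.4). Cd3g, a subunit of the T cell receptor complex, had 450 and 448, and Cd3e, Cd3d and Cd8a were under 100. Gata3 and Rora, transcription factors of type 2 innate lymphoid cells that other bladder cells also express, had log2 ratios of -0.07 and -0.01. All 6 measured macrophage markers of 7 had a ratio below 1, with a median of -0.77 and a summed signal over the 7 of 4524 and 2777. None was past both thresholds. Csf1r (Z score -2.69), Ptprc (-2.57), Adgre1 (-2.22) and Mrc1 (-2.01) met the Z bound alone, and Cd68 and Cd163 met neither bound. None of these markers was at 0, as no cluster on the arrays was, and their part in the ratio of Il7r was not tested.

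In the interleukin-1 and interleukin-36 receptors, no chain passed both thresholds, and measured chains had log2 ratios between -0.94 (Il1rl2) and -0.01 (Il1rap). Il1rl2, the ligand-binding chain of the interleukin-36 receptor in epithelia, had 614 in the control and 320 in the DMA pool. This is a 1.92-fold lower signal (log2 ratio -0.94, Z score -2.51), just outside the ratio threshold, and it passed when the arrays were centred on their medians (-1.04). Its ligands Il36a, Il36b and Il36g and the antagonist Il36rn were dim, at 18.5 to 40.5. Il1r1, the signalling receptor for interleukin-1, had 3176 and 2380 (log2 ratio -0.42), and the decoy receptor Il1r2 had 42.4 and 40.0. Neither ligand was measured, with 30.2 and 37.1 for Il1a and 74.3 and 76.2 for Il1b.

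Il1rn, which encodes the antagonist that blocks the interleukin-1 receptor, was the one inhibitor with a ratio above 1 among those measured. It had 881 in the control and 1251 in the DMA pool, 1.42-fold higher with a Z score of 1.90, and did not pass a threshold. On the RefSeq map it overlaps Il36b, whose own cluster had 19.2 and 18.5. The soluble inhibitor of interleukin-18, Il18bp, had 140 and 120.3, and the decoy receptor for interleukin-13, Il13ra2, had 102.6 and 72.3.

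The interleukin-18 genes were near or under the minimum, except for 1 receptor chain. Il18, an inflammatory cytokine that epithelia store as a precursor, had 86.1 in the control and 49.7 in the DMA pool. This 1.73-fold lower signal, a log2 ratio of -0.79, was the lowest ratio among the 55 unmeasured interleukin genes. A second Il18 cluster also had a lower signal in the DMA pool (54.2 and 36.9, log2 ratio -0.56). Il18r1, the ligand-binding chain, had 584 and 616, and Il18rap, its partner chain, had 65.8 and 46.6. Casp1, the protease that cuts the precursors of interleukin-1 beta and interleukin-18 into active forms, had 508 and 323 (log2 ratio -0.65) and was not past a threshold.

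Il12rb2 had the highest ratio among the measured interleukin genes. It encodes the signalling chain of the interleukin-12 receptor, best known in natural killer cells and T helper cells. Its signal was 9599.8 in the control and 15519 in the DMA pool (cluster TC0400003033.rn.1), 1.62-fold higher with a log2 ratio of 0.69 and a Z score of 2.55, short of the ratio threshold. Of all measured genes, 0.964% had a higher ratio. Its partner chain Il12rb1 had 37.5 and 38.2, and the ligand subunits Il12a and Il12b had 100.3 and 89.6 and 54.7 and 71.5. The neighbours of Il12rb2 on the RefSeq map are Il23r, at 58.2 and 53.8, and Serbp1, an RNA-binding protein gene for which no cluster carried that single symbol. The probe positions of the Il12rb2 cluster were not looked up, so whether a neighbour adds to its signal was not tested.

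Receptors of the interleukin-6, interleukin-10 and interleukin-17 families were measured in both pools, while no ligand of these families with an interleukin symbol was. Of the ligands under other symbols that signal through gp130, Ctf1, which encodes cardiotrophin-1, had 765 and 849 and Cntf, which encodes ciliary neurotrophic factor, had 133 and 141. Il6st, the gp130 chain through which interleukin-6 and its relatives signal, had 12684 in the control and 10227 in the DMA pool (log2 ratio -0.31), and Il6r had 216 and 179 (-0.27). Il11ra1, the receptor chain for interleukin-11, had 142 and 136 and overlaps the chemokine gene Ccl27 on the map. Il6 itself had 24.9 and 28.0.

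In the interleukin-10 family, Il10rb, a chain shared by several receptors, had 4671 and 3889 (log2 ratio -0.26). Il10ra, which gives specificity for interleukin-10, had 213 and 191 (-0.15), and Il22ra1, the epithelial receptor chain for interleukin-22, had 107 and 112 (0.08). Il20ra and Il20rb, chains of the receptors for interleukin-19, interleukin-20 and interleukin-24, were under the minimum.

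Of the 5 interleukin-17 receptor genes, 4 were measured and lay close to a ratio of 1. Il17re, the epithelial receptor chain for interleukin-17C, had 10338 in the control and 9711 in the DMA pool (log2 ratio -0.09), while its ligand Il17c had 87.7 and 75.5. The common chain Il17ra had 350 and 353, Il17rc had 474 and 469, and Il17rd had 187 and 161. Their log2 ratios ran from -0.22 for Il17rd to 0.01 for Il17ra, and the sign of Il17ra and that of Il17rc turned under another scaling of the arrays. Il17rb, which binds interleukin-25, had 31.6 and 32.4.

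The remaining measured genes served type 2 and haematopoietic cytokines. Il13ra1, the receptor chain for interleukin-13, had 13006 and 14322 (log2 ratio 0.14), and its pseudogene Il13ra1-ps1 had 3676 and 4191 (0.19). A pseudogene resembles its parent gene in sequence, and signal could not be assigned to one or the other with certainty. On the RefSeq map Il13ra1-ps1 also overlaps Atp13a4, Il6r overlaps She, Il17rd overlaps Arhgef3, and Il6st and Il1rap each overlap an uncharacterised gene. Only the spans of the genes were compared, without strand or probe positions, so whether the overlaps affect these signals was not tested. Il3ra, the receptor chain for interleukin-3, had 239 and 225 (-0.08). The 3 genes that carry an interleukin name for other reasons, the amino acid oxidase gene Il4i1 and the synaptic genes Il1rapl1 and Il1rapl2, were under the minimum.

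The 55 genes under the minimum lay within 1.5-fold between the pools, apart from Il18. Their log2 ratios ran from -0.79 to 0.54, with a median of 0.05, and 19 were below 0. Over all 10375 unmeasured genes the median was 0.10. Il23a, a subunit of interleukin-23, had the highest ratio of the 55 (35.1 and 51.2).

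**Figure D3:**
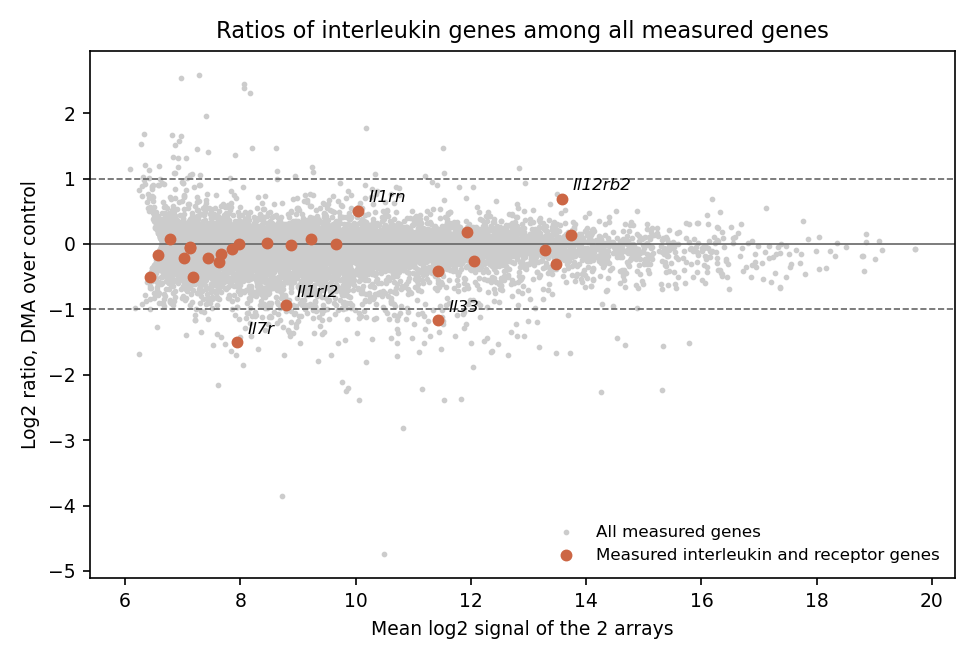
Log2 ratio of DMA over control against the mean log2 signal of the 2 arrays, for all 11718 measured genes (grey) and the 27 measured interleukin and receptor genes (orange); dashed lines mark a 2-fold difference. Il33 and Il7r lie below the lower line, Il1rl2 just above it, and Il12rb2 and Il1rn are highest.

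Partners and relatives of the interleukins under other symbols, both ligands and receptor chains, included 1 gene that was lower. Of 22 such genes, 20 were on the array and 10 were measured, with a median log2 ratio of 0.01, 1 lower and 0 higher. The shares over all measured genes were 1.42% lower and 0.375% higher. The lower gene was Cntfr, the ligand-binding chain of the ciliary neurotrophic factor receptor that signals through gp130, with 4280 in the control and 1963 in the DMA pool (2.18-fold lower). Lifr, the leukaemia inhibitory factor receptor and a partner of gp130, had 1033 and 630 (log2 ratio -0.71). Csf1r, the receptor for colony stimulating factor 1 and interleukin-34 on macrophages, had 1621 and 882 (-0.88), while Csf1 had 367 and 269 and Il34 had 61.2 and 63.9. Osmr, the oncostatin M and interleukin-31 receptor chain, had 4069 and 3912 (-0.06).

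Signal transducers downstream of the receptors had 0 members past a threshold. Over all measured genes 1.42% were lower and 0.375% higher, so 0 is close to the share over all genes. The 20 measured genes of MyD88 and NF-kB signalling, of 21, had a median log2 ratio of -0.0011, and the largest ratios were those of Nfkbiz (0.49), Rela (-0.35), Irak3 (-0.32) and Map3k7 (0.27). The 14 measured JAK, STAT and SOCS genes, of 19 listed, had a median of -0.10, with Stat5b at -0.29, Cish at 0.23, and Ptpn6 and Stat2 both at -0.21. Socs3, a feedback inhibitor induced by interleukin-6 signalling, was under the minimum, with 60.9 and 66.8. The 7 measured inflammasome and processing genes, of 12, had a median of -0.10, and after Casp1 the largest ratios were those of Gsdmd (-0.22), Casp4 (0.20) and Casp8 (0.17).

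Cells that respond to interleukin-33 were represented by few markers. Of 6 mast cell markers, Cpa3 and Tpsb2 were measured. The carboxypeptidase gene Cpa3 was 2.16-fold lower (490 and 227), and the tryptase gene Tpsb2 had 187 and 177. Of 4 eosinophil markers, Siglec5 was measured, with 122 and 95.2. The summed signal of the mast cell list was 873 in the control and 587 in the DMA pool, and that of the eosinophil list was 225 and 213. No marker of either list was at 0, as no cluster on the arrays was.

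**Figure D4:**
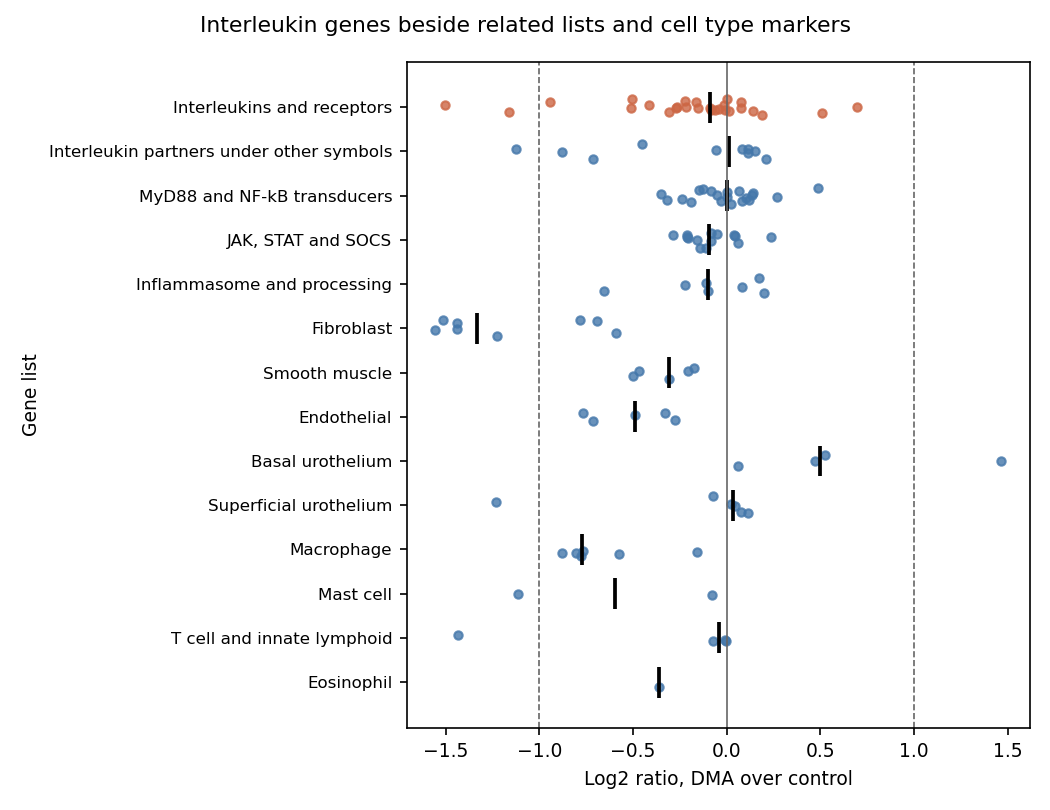
Log2 ratios of DMA over control for the measured genes of the interleukin set (orange) and of related lists and cell type markers (blue), 1 point per gene; black bars are medians and dashed lines mark a 2-fold difference. The fibroblast list has a median of -1.33 and the macrophage list one of -0.77, whereas the interleukin set has one of -0.09.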

How the data were processed

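The authors made cRNA from pooled bladder RNA (GeneChip WT PLUS), and the deposited values are linear signal intensities, for which the submitters' processing notes name RMA and Affymetrix Expression Console 1.4.1. A genome build for the clusters is not given in the sources used here. The array named in the methods differs from that of the file. RMA makes the distributions of arrays more alike, so that shifts common to most transcripts can be lost, and it narrows ratios of dim transcripts. The median signals of the deposited values still differed, at 49.7 in the control and 53.2 in the DMA pool. Intensities were taken to log2 with pandas 2.3.3 in Python 3.11.15. Of 68842 clusters, 23446 had 1 symbol in the platform annotation. Of the 87 interleukin clusters, 86 matched a RefSeq gene by identifier, and 0 symbols changed. Signals reached 100 in 36.1% (control) and 36.2% (DMA) of clusters. The thresholds on ratio, Z score and signal follow the methods of the study. Keeping a gene when only its higher signal reached 100 and taking Z over 500 genes were choices made here. The methods also name a global median normalization, whereas the main calls used the deposited values as they were. With arrays centred on their medians, 3 interleukin genes were lower in place of 2. The code that makes the calls was tested on simulated data, which gives the differences no error. Every measured interleukin gene was named, and of related lists those past a threshold and, for the pathway lists, up to 4 with the largest ratios. The members and lists were chosen with earlier results of these data known. The arrays limit precision by their number, 1 per group.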

Additional observations from a re-analysis of the deposited data

How the results depend on the processing

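Il33 and Il7r were lower, and no measured interleukin gene was higher, under every alternative tried for the thresholds: the mean of all clusters of a gene, updated symbols, centred arrays, a lowess correction, both signals at least 100, no signal minimum, no Z score, and a Z score over all measured genes. Each of the 2 genes has 1 cluster, an unchanged symbol and both signals above 100. Only centring and lowess could therefore change their ratios, and dropping the Z score only loosens the rule. With arrays centred on their medians Il1rl2 was lower too, which made 3. The log2 ratio of Il33 was then -1.26, and -1.12 after the lowess correction. The median of the measured interleukin genes was -0.19 with centred arrays, -0.053 after lowess, -0.085 with both signals at least 100 and 0.014 with no minimum, when 55 dim genes entered. Over all measured genes the median under these settings was -0.14, -0.0047, -0.040 and 0.029, in the same order. The interleukin median thus stayed below that of all genes in each. Centring turned the sign of Il17ra, Il22ra1 and Il18r1, and lowess that of Il17rc, Il1rap and Il4r. Without a minimum the median of the T cell and innate lymphoid list was 0.098, that of the eosinophil list 0.025 and that of the mast cell list -0.16, and with both signals at least 100 that of the inflammasome list was -0.0097. With a minimum of 50 in place of 100, 46 genes were measured, and with 200, 19. Il33 had no other cluster to try. No paired analysis was possible because each group has 1 array.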

Other observations

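Genes of the interleukin-1 receptor family that lie next to each other on the RefSeq map had unlike ratios. In map order they are Il1r1, Il1rl2, Il1rl1, Il18r1 and Il18rap, and their log2 ratios of DMA over control were -0.42, -0.94, -0.29, 0.08 and -0.50. Of these, Il1r1, Il1rl2 and Il18r1 were measured, and Il1rl1 and Il18rap were under a signal of 100 in both pools. The neighbours Il17re and Il17rc had log2 ratios of -0.09 and -0.01.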
